A study of Rattus norvegicus with 8 samples.

Results

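The 9 genes described here, Itga2b, Gp6, Ppbp, Pf4, Gp1ba, Gp1bb, Gp9, Vwf and Treml1, encode receptors and granule proteins of megakaryocytes and of the platelets that megakaryocytes shed. They were taken by symbol from a table of 19120 gene loci, each symbol had 1 locus, and all 9 were among the 13742 loci tested, that is, those with a mean of at least 0.5 FPKM (fragments per kilobase of transcript, scaled to the library total). Ribosomal-RNA-depleted total RNA was sequenced from bone cut with a margin of 1 mm around titanium implants. The implants had been in the femoral shafts for 10 days, and the animals were Wistar rats, all male, 12 to 13 weeks old. The 4 normal libraries came from rats on a normal diet and the 4 hyperlipidemic libraries from rats on a high-fat diet, each for 8 weeks, and every rat had an implant in both femora. The labels give no blood lipid values. Nor do they tie each library to an animal of its own, so every p-value rests on the spread among 8 libraries that may be technical in part. The bone matrix genes Col1a1 and Bglap, markers of the labelled tissue, were at 518 to 1942 and 112 to 406 FPKM across the 8 libraries.

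Megakaryocytes are large polyploid cells that sit against marrow sinusoids and release platelets into the blood. Their receptors fall into a few complexes: the fibrinogen receptor, an integrin whose alpha subunit is Itga2b; the receptor for von Willebrand factor, built from Gp1ba, Gp1bb, Gp9 and Gp5; and the collagen receptor Gp6, which signals through Fcer1g and the kinase Syk. Their alpha granules hold the chemokines Ppbp and Pf4 and the adhesive protein Vwf, which endothelial cells also make. In bone repair, platelets are among the first cells in the clot that fills the gap around an implant.

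Values of all 9 genes averaged higher in the hyperlipidemic than in the normal libraries, but no member passed the test over all genes. Of all tested genes 65.0% had a log2 change above 0, with a median of 0.18, beside which the members' median of 1.33 is to be read. Under 3 other scalings of the libraries that share was 54.4% to 54.9%. The median of all tested genes was then 0.05 to 0.06 and that of the members 1.17 to 1.23. The limma adjusted p of the members lay between 0.138 and 0.827, against 1.39% of tested genes that were called at an adjusted p under 0.05 (0.146% called higher and 1.24% lower). At an unadjusted p under 0.05, 5 of the 9 members were higher (Itga2b, Gp6, Ppbp, Gp9 and Vwf), a mark that 8.61% of tested genes reached. Only Gp6 among the 9 had hyperlipidemic values that all lay above the normal values, which 4.19% of tested genes did. The members were chosen with earlier results of these data known. Their counts and median beside those of all tested genes are therefore description and no test of the members. In bulk RNA, more cells of a type and more RNA per cell cannot be told apart.

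Normal replicates 1 and 4 stood apart from the other libraries. They listed 2011 and 1988 of the tested genes at 0, against 230 and 762 in normal replicates 2 and 3 and 326 to 1183 in the hyperlipidemic libraries. For 8 of the 9 members the lowest of all 8 values was in normal replicate 1 or 4, the exception being Gp1ba, and each of those replicates listed 2 members at 0. With both left out, the median log2 change of the members was 0.67, against a median of 0.04 for all genes. No member was then called, and 1 of the 9, Gp6, had no overlap between groups, against 7.63% of tested genes. The part of these libraries in the group difference was not tested. The deposited values carry no counts, so depth per library is unknown, and a value listed at 0 is not shown to be absence of the transcript.

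**Figure D1:**
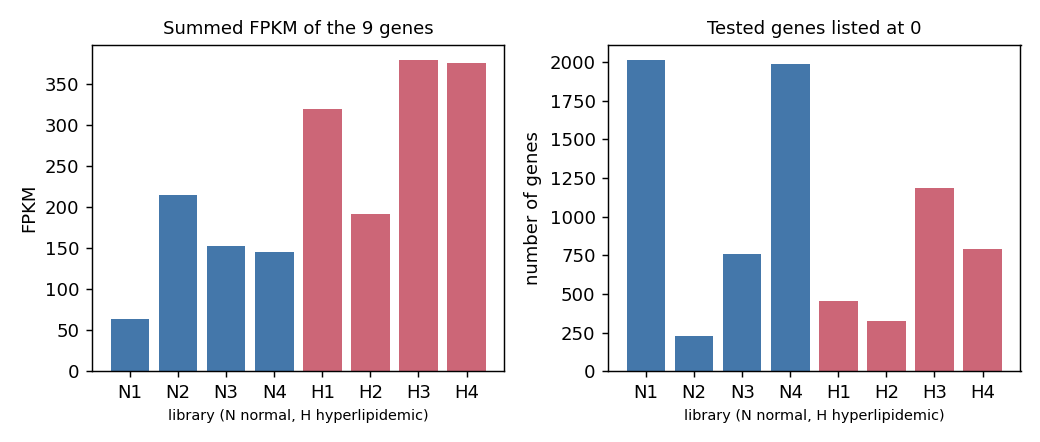
Bars give, for each library (N normal, H hyperlipidemic, with the replicate number), the summed FPKM of the 9 genes on the left and the number of tested genes listed at 0 on the right. The sum ran from 64.3 to 215 FPKM in normal and from 192 to 379 in hyperlipidemic libraries, and normal replicates 1 and 4 have the tallest bars on the right.

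The members differed widely in level per length. Over all 8 libraries Pf4 averaged 88.2 FPKM and Ppbp 71.4, followed by Itga2b at 14.6, Treml1 at 13.9, Gp1bb at 12.9, Gp1ba at 10.0, Vwf at 7.79, Gp9 at 6.44 and Gp6 at 5.19. In the hyperlipidemic libraries the granule chemokines Pf4 and Ppbp (48.2 FPKM or more in each) lay above every value of Itga2b (at most 25.8), while neighbours further down the order overlapped in their ranges. Library by library, hyperlipidemic replicate 2 held the lowest hyperlipidemic value of 8 members, Treml1 being the exception, and normal replicate 2 held the highest normal value of 4.

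**Figure D2:**
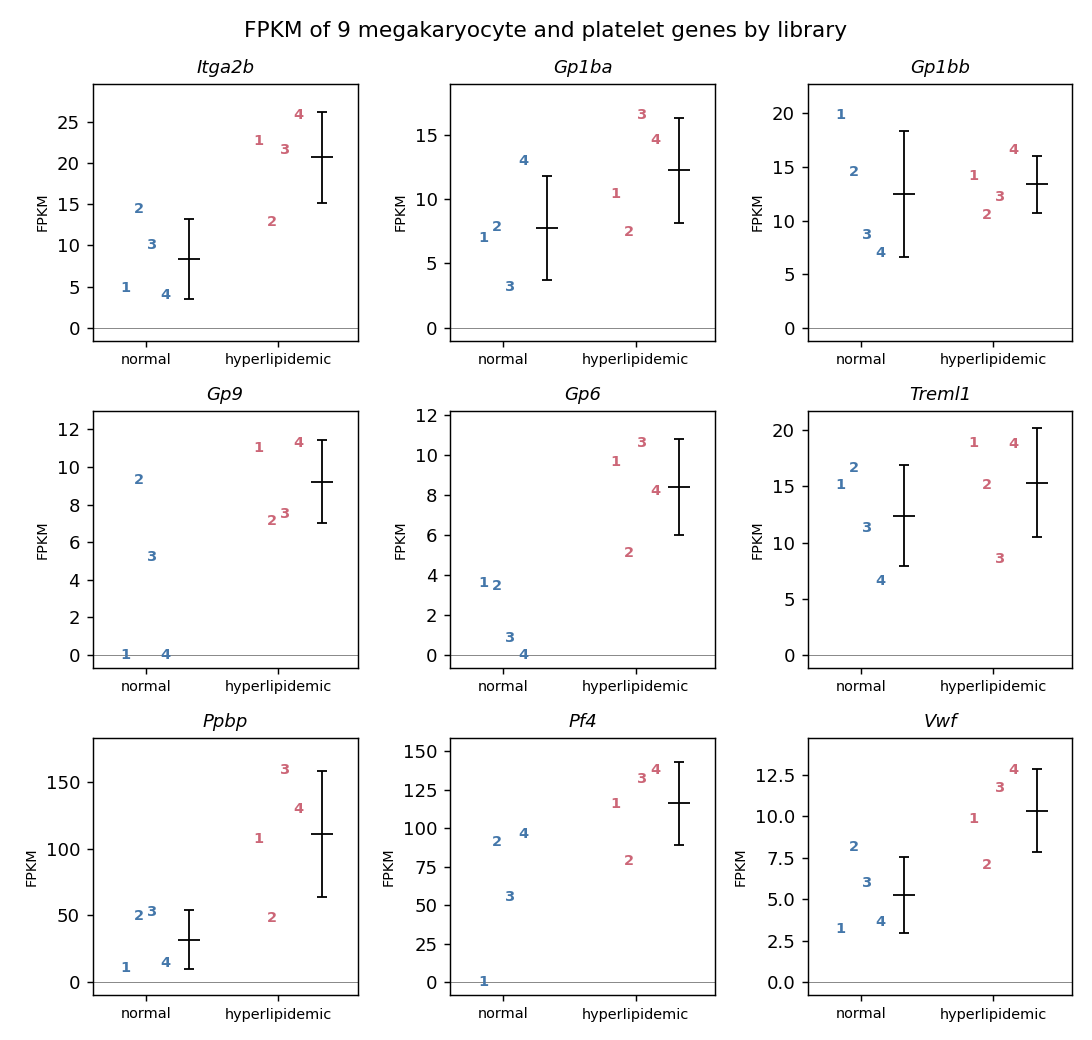
Each panel gives the FPKM of 1 gene, with digits for the replicate numbers of the normal and hyperlipidemic libraries and a bar for mean and SD (n = 4), left out where a library is listed at 0. Gp6 is the gene whose groups do not overlap, while normal replicate 2 lies within the hyperlipidemic range for every other gene.

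The bases before the start of 4 members are printed. Itga2b, Gp6 and Ppbp had the smallest limma adjusted p among the members (0.138 to 0.185, none called) and Gp1bb the largest (0.827). They are from RefSeq on GRCr8, which matched 7 of the 9 symbols, and each run is the 250 bases before the start, in the gene's own direction. Capitals mark GATAA, a core of the sites of GATA factors, and a core of the sites of ETS factors, searched as AGGAAG and also as CGGAAG. A match on the opposite strand is printed as its reverse complement. The runs are chr10:87925834-87926083 on the minus strand for Itga2b, chr1:78508258-78508507 on the plus strand for Gp6, chr14:17587300-17587549 on the minus strand for Ppbp and chr11:95882311-95882560 on the plus strand for Gp1bb.
Itga2b: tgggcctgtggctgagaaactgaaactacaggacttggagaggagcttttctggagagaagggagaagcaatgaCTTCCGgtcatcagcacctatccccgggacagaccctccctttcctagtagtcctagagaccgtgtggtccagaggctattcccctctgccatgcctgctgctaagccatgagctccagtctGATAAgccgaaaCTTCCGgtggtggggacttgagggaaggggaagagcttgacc
Gp6: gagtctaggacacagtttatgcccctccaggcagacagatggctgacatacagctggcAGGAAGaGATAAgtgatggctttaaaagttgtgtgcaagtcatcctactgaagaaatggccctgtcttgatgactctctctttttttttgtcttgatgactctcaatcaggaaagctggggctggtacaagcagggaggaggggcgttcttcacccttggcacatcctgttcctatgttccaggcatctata
Ppbp: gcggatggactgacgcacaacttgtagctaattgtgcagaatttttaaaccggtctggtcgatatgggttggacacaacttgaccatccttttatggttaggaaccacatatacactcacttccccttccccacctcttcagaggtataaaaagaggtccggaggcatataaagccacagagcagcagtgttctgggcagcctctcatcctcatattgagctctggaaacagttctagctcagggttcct
Gp1bb: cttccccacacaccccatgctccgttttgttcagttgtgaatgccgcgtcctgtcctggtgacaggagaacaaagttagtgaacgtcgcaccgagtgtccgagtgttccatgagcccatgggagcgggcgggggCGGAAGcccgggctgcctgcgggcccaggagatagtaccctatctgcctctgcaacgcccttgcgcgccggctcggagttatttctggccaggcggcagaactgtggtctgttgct
In Itga2b GATAA begins 54 bases before the start, with CGGAAG on the other strand at 42 and 176 bases, and in Gp6 AGGAAG at 192 bases and GATAA at 185 follow each other. The letters of a GATA and an ETS core were together in 4 of the 7 members with an entry (Itga2b, Gp6, Gp1ba and Gp9) and in 8.53% of 33469 RefSeq promoters of the same length. GATAA alone was in 23.5% of these promoters, AGGAAG in 29.5% and CGGAAG in 13.9%. Ppbp and Treml1 held none of the 3 in this window, and Gp1bb held CGGAAG alone, at 116 bases.

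Itga2b, the alpha subunit of the platelet fibrinogen receptor and the gene most used to mark the lineage (chromosome 10, 90398132 to 90415070 on Rnor_6.0), measured 4.82, 14.4, 10.1 and 4.0 FPKM in normal replicates 1 to 4 and 22.7, 12.9, 21.6 and 25.8 FPKM in hyperlipidemic replicates 1 to 4. Hyperlipidemic replicates 1, 3 and 4 lay above every normal library, and the groups overlapped through hyperlipidemic replicate 2 and normal replicate 2. The means were 8.35 ± 4.89 and 20.8 ± 5.54 FPKM (SD, n = 4), a 2.48-fold difference (log2 change 1.33 with a standard error of 0.38, limma adjusted p = 0.185). Without normal replicates 1 and 4 its log2 change was 0.69. Its integrin partner Itgb3, which bone-resorbing osteoclasts also carry, was at 28.3 to 51.4 FPKM in normal and 28.6 to 44.3 FPKM in hyperlipidemic libraries, with a log2 change of 0.10.

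Among subunits of the receptor for von Willebrand factor, Gp9 and Gp1bb had unlike values. Gp9 (chromosome 4, 119680112 to 119682547) gave no value above 0 in normal replicates 1 and 4 and measured 9.31 and 5.23 FPKM in normal replicates 2 and 3. The hyperlipidemic libraries held 11, 7.13, 7.49 and 11.3 FPKM in replicate order, and 2 of them lay below normal replicate 2. The log2 change was 1.83 (standard error 0.72, limma adjusted p = 0.325) with all libraries and 0.33 without normal replicates 1 and 4. Gp1bb, the subunit tied to Gp1ba by a disulfide bond (chromosome 11, 86520992 to 86522169), measured 19.8, 14.5, 8.62 and 7.01 FPKM in the normal and 14.2, 10.5, 12.2 and 16.6 FPKM in the hyperlipidemic libraries. The normal values of Gp1bb enclosed the hyperlipidemic ones, with normal replicate 1 the highest of all 8, and its log2 change of 0.18 (95% interval -0.53 to 0.88, adjusted p = 0.827) equalled the median of all genes and was -0.04 without normal replicate 4.

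Gp1ba, the subunit that binds von Willebrand factor (chromosome 10, 57260680 to 57263546), was at 7.0, 7.83, 3.17 and 13.0 FPKM in the normal and 10.4, 7.45, 16.5 and 14.6 FPKM in the hyperlipidemic libraries. Hyperlipidemic replicates 3 and 4 exceeded every normal library, and the other 2 lay within the normal range (7.75 ± 4.03 and 12.2 ± 4.09 FPKM, log2 change 0.67, 95% interval -0.17 to 1.51, adjusted p = 0.462). Without normal replicates 1 and 4 its log2 change was larger, at 1.07, as that of Gp1bb was at 0.22, and it was 0.36 without normal replicate 3. Gp5, the fourth subunit, gave no value above 0 in normal replicates 1, 3 and 4 and in hyperlipidemic replicate 4, and was at most 4.56 FPKM elsewhere.

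Gp6, the platelet receptor for collagen (chromosome 1, 73040901 to 73064641), measured 3.61, 3.44 and 0.856 FPKM in normal replicates 1 to 3 and was listed at 0 in the fourth. Its hyperlipidemic values were 9.65, 5.09, 10.6 and 8.19 FPKM. Every hyperlipidemic value lay above every normal one, and the low normal values were in replicates 3 and 4. Its log2 change was 1.88 (standard error 0.49, limma adjusted p = 0.138), and 1.67 without normal replicates 1 and 4. Fcer1g, the signalling partner of Gp6 that mast cells and myeloid cells also express, was at 78.0 to 364 FPKM in normal and 148 to 186 FPKM in hyperlipidemic libraries (log2 change -0.30, adjusted p = 0.758). Treml1, a receptor stored in alpha granules and brought to the platelet surface on activation (chromosome 9, 14597172 to 14599594), was at 15.1, 16.6, 11.3 and 6.57 FPKM in the normal and 18.9, 15.1, 8.58 and 18.8 FPKM in the hyperlipidemic libraries. The groups overlapped broadly for Treml1, with hyperlipidemic replicate 3 below 3 of the normal libraries (log2 change 0.30, 95% interval -0.44 to 1.04, adjusted p = 0.704).

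The granule chemokines Ppbp and Pf4 lie next to each other on chromosome 14 (18851954 to 18853315 and 18848549 to 18849258). Ppbp, the precursor of a neutrophil-attracting chemokine, measured 10.7, 49.5, 52.7 and 14.4 FPKM in normal replicates 1 to 4 and 107, 48.2, 159 and 129.8 FPKM in hyperlipidemic replicates 1 to 4. Hyperlipidemic replicate 2 was level with normal replicates 2 and 3, and the other 3 hyperlipidemic libraries exceeded all normal ones (31.8 ± 22.4 and 111 ± 47.0 FPKM, 3.49-fold between means, log2 change 1.96 with a standard error of 0.54, limma adjusted p = 0.170). Without normal replicates 1 and 4 its log2 change was 0.98.

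Pf4, platelet factor 4, was listed at 0 in normal replicate 1 and measured 90.9, 55.2 and 96.1 FPKM in normal replicates 2 to 4, against 116, 78.5, 132 and 138 FPKM in hyperlipidemic replicates 1 to 4. Apart from the library listed at 0, hyperlipidemic replicate 2 lay among the normal values and the other 3 hyperlipidemic libraries lay above them. The log2 change of 2.1 had a standard error of 1.23 (adjusted p = 0.477) and was 0.53 without normal replicate 1.

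Vwf, the adhesive protein that bridges collagen and platelets (chromosome 4, 158088505 to 158219523), was at 3.21, 8.14, 5.98 and 3.62 FPKM in the normal and 9.81, 7.04, 11.7 and 12.8 FPKM in the hyperlipidemic libraries. The groups overlapped only between normal replicate 2 and hyperlipidemic replicate 2 (5.24 ± 2.29 and 10.3 ± 2.53 FPKM, 1.97-fold between means, log2 change 0.90 with a standard error of 0.31, limma adjusted p = 0.275, and 0.48 without normal replicates 1 and 4). Because endothelial cells share Vwf, 10 further tested endothelial markers were set beside it: 5 had higher and 5 lower values, none was called, and their median log2 change was 0.0028. The most abundant of them, Cdh5, Emcn, Kdr and Tie1, had log2 changes of -0.08, 0.34, 0.09 and -0.13, and the summed level of the 10 ran from 32 to 52.4 FPKM in normal and from 32.3 to 53.1 FPKM in hyperlipidemic libraries.

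**Figure D3:**
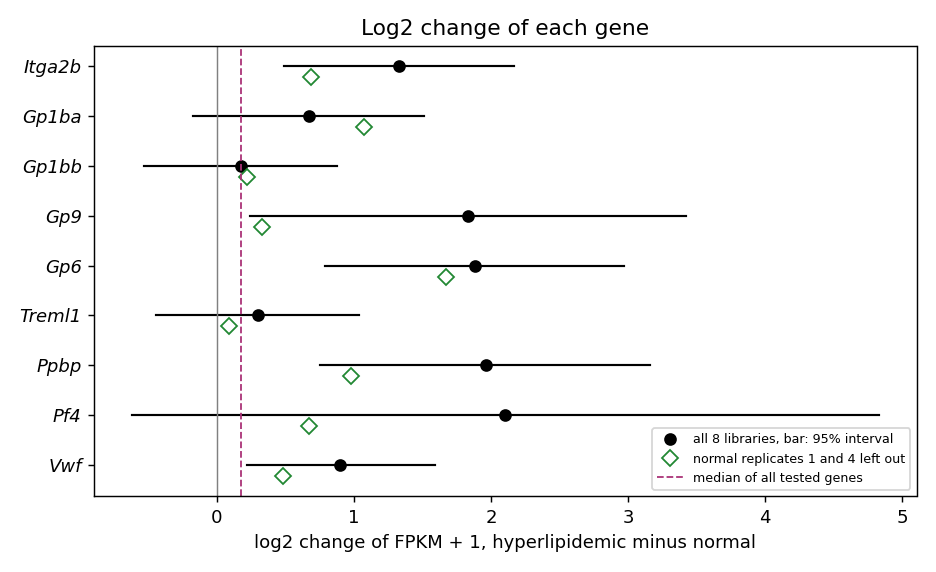
Points give the log2 change of FPKM + 1 (hyperlipidemic minus normal) of each gene with its 95% interval from limma, and diamonds the log2 change without normal replicates 1 and 4. The intervals of 5 genes lie above 0, and those of Gp1ba, Gp1bb, Treml1 and Pf4 cross it. The dashed line is the median of all tested genes over all 8 libraries, and most diamonds lie closer to it than the points do. Without normal replicates 1 and 4 the median of all tested genes was 0.04, which is not drawn.

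Ratios within a library do not depend on how that library was scaled, apart from the 1 FPKM added to each value. The log2 ratio of Itga2b to Vwf was 0.47, 0.76, 0.67 and 0.12 in normal replicates 1 to 4 and 1.13, 0.79, 0.83 and 0.95 in hyperlipidemic replicates 1 to 4. Every hyperlipidemic ratio lay above every normal one, a difference of 0.42 (two-sided exact permutation test, p = 0.0286, and 0.0857 after adjustment over the 3 ratios compared). With groups of 4 this test cannot give a smaller p than that first value. Against Ptprc, the common leukocyte antigen, the log2 ratio of Itga2b was -2.88 ± 0.70 in normal and -1.79 ± 0.24 in hyperlipidemic libraries (SD, n = 4; difference 1.09, exact permutation p = 0.0571, adjusted 0.0857). Against Slc4a1, the anion exchanger of the red cell membrane, it was -4.78 ± 0.71 and -4.0 ± 0.18 (difference 0.78, exact permutation p = 0.143, adjusted 0.143), and none of the 3 ratios passed 0.05 after adjustment. For both, normal replicate 2 lay at the level of the hyperlipidemic libraries.

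**Figure D4:**
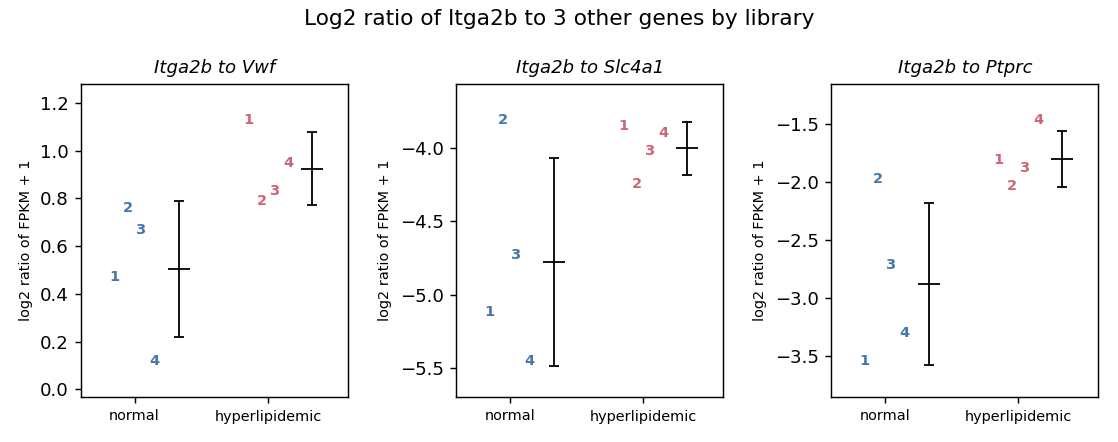
Each panel gives the log2 ratio of Itga2b to another gene by library, computed on FPKM + 1, with digits for replicate numbers and a bar for mean and SD (n = 4). The ratio to Vwf separates the groups, whereas normal replicate 2 lies among or above the hyperlipidemic libraries for Ptprc and Slc4a1.

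Further genes of the lineage were taken from lists, and 1 of them rose and 1 fell over all genes. Among 13 tested transcription factors of megakaryocyte formation 10 had higher and 3 lower values (median log2 change 0.30). Tal1, which acts in stem cells and in red cell and megakaryocyte precursors (chromosome 5), rose from 9.65, 20.3, 7.05 and 14.0 FPKM in normal replicates 1 to 4 to 41.2, 29.5, 43.1 and 50.9 FPKM in hyperlipidemic replicates 1 to 4. The groups did not overlap (log2 change 1.69, limma adjusted p = 0.0263), and the call ended without any 1 library other than normal replicate 2 or hyperlipidemic replicate 2 (adjusted p from 0.0521 to 0.117), with no filter on low values (0.0858) and with the replicate number as a block (0.0785). Zfpm1, a partner of GATA factors, had a log2 change of 0.66 (adjusted p = 0.290), the ETS-family repressor Etv6 one of -0.50 (0.435), and the homeobox factor Meis1 one of 0.51 (0.512). Fli1, the ETS factor that drives many platelet genes, was at 9.43 to 15.4 FPKM in normal and 11.3 to 14.1 FPKM in hyperlipidemic libraries (log2 change 0.05), and Nfe2, required for platelet release, had a log2 change of 0.45 (0.617).

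Thrombopoietin, the hormone of megakaryocyte growth that the liver supplies, was under the filter: Thpo was listed at 0 in 7 libraries and at 0.0488 FPKM in hyperlipidemic replicate 2. Of 8 tested genes of its signalling 7 had higher and 1 lower values, none called (median log2 change 0.15). Jak2, a kinase of cytokine signalling, averaged 12.6 ± 2.89 in normal and 20.7 ± 3.41 FPKM in hyperlipidemic libraries (SD, n = 4; log2 change 0.68, adjusted p = 0.264). The transcription factors it activates had log2 changes of 0.30 (Stat3) and 0.13 (Stat5b, whose sign turned under 2 scalings).

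Of 17 other platelet receptors tested 13 had higher and 4 lower values, none called (median log2 change 0.59). Cd226, an adhesion receptor of platelets that T and NK cells share, measured 2.15, 3.12, 2.78 and 0.659 FPKM in the normal and 8.58, 4.0, 8.86 and 10.3 FPKM in the hyperlipidemic libraries. Its groups did not overlap (log2 change 1.51, limma adjusted p = 0.112), and the same held for the adhesion receptor Selp, at 2.20 to 5.42 and 5.45 to 8.73 FPKM (0.72, 0.335), 2 of the 17 against 4.19% of tested genes. P2rx1, an ATP-gated channel, had a log2 change of 1.00 (0.258), Clec1b, the podoplanin receptor, one of 1.07 (0.298), and Itgb1 one of 0.64 (0.323). Lower values were those of the thrombin receptor gene F2rl2 (log2 change -0.53), Fcer1g, the thromboxane receptor Tbxa2r (-0.22) and the prostaglandin receptor Ptger3 (-0.22).

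The granule and coagulation list had 8 of 16 tested genes higher and 8 lower (median log2 change 0.16), and 1 was called. Ccl5, a chemokine that platelets store and T cells also make, fell from 24.6, 11.5, 7.22 and 19.7 FPKM in normal replicates 1 to 4 to 3.25, 1.6 and 0.441 FPKM in hyperlipidemic replicates 1, 2 and 4, and was listed at 0 in hyperlipidemic replicate 3. The groups did not overlap (log2 change -2.94, limma adjusted p = 0.0159), but leaving out any 1 of normal replicates 1 and 4 and hyperlipidemic replicates 3 and 4 ended the call (adjusted p from 0.0569 to 0.0756). Adding 0.1 FPKM in place of 1 (0.087) or dropping the filter (0.0815) did so too.

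Higher values without overlap were those of Thbs1, the adhesive protein thrombospondin (16.1 to 32.1 and 34.6 to 66.9 FPKM, log2 change 1.07, adjusted p = 0.137), the clotting factor F5 (4.17 to 12.0 and 14.7 to 30.1, 1.40, 0.115), the granule proteoglycan Srgn (97.0 to 371 and 403 to 488, 1.14, 0.247) and Clu (0.92, 0.293). Mmrn1, the multimerin that carries that clotting factor in platelets, overlapped through hyperlipidemic replicate 2 alone (2.93 to 7.95 and 7.54 to 21.9 FPKM, log2 change 1.32, adjusted p = 0.161). Lower values without overlap were, besides Ccl5, those of Serpine2, a thrombin inhibitor (58.3 to 109 and 31.3 to 45.1 FPKM, log2 change -0.96, adjusted p = 0.102), and of Sparc, a bone matrix protein that platelets also carry (-0.97, 0.174). Without overlap were thus 4 genes higher and 3 lower of the 16, against 4.19% and 3.75% of tested genes.

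Platelet signalling and cytoskeleton genes gave no call. Of 17 signalling genes 14 had higher and 3 lower values (median log2 change 0.34), and those with the smallest p were the lipoxygenase Alox12 (4.41 to 11.7 and 10.4 to 20.1 FPKM, log2 change 0.90, limma adjusted p = 0.277), Rap1b, the small GTPase that turns on the fibrinogen receptor (0.74, 0.311), Plek (0.68, 0.284) and the adaptor Lcp2 (0.52, 0.339). Syk, the kinase below Gp6 and Clec1b, ranged over 9.69 to 15.2 and 12.0 to 15.4 FPKM (log2 change 0.19). Of 10 cytoskeleton genes 8 had higher and 2 lower values (median 0.40), among them Tubb1, the tubulin of the platelet marginal band (8.42 to 25.6 and 19.4 to 38.8 FPKM, log2 change 0.79, adjusted p = 0.378), Tpm4 (0.52, 0.339), Wdr1 (0.46, 0.423) and the filamin Flna (0.40, 0.461).

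Of 13 tested red cell genes, markers of the nearest related lineage, all had higher values and none was called (median log2 change 0.73). Sptb was called under quantile normalization (adjusted p = 0.0447), and Tfrc without normal replicate 3 (0.0296). Their summed level was 1164 to 2443 FPKM in normal and 1447 to 2700.4 FPKM in hyperlipidemic libraries, and their most abundant members were Ahsp (log2 change 0.21), Slc4a1 (0.55), Alas2 (0.50) and Tfrc (1.01). Normal replicate 1 had the lowest summed level of the 9 megakaryocyte genes, 64.3 FPKM, and the highest normal level of the red cell genes, 2443 FPKM. Single genes weigh heavily in these sums, with Pf4 listed at 0 and Ahsp at 1394 FPKM in that library. There 4 of the 9 members had their lowest of all 8 values and Gp1bb its highest. Red cell genes differed there too. Klf1, Epor, Alas2, Ahsp, Epb42, Hemgn and Rhag were at their highest normal value in normal replicate 1, and only Slc4a1 and Tspo2 at their lowest. The part of red cell precursors in the values of genes that both lineages share was not tested.

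**Figure D5:**
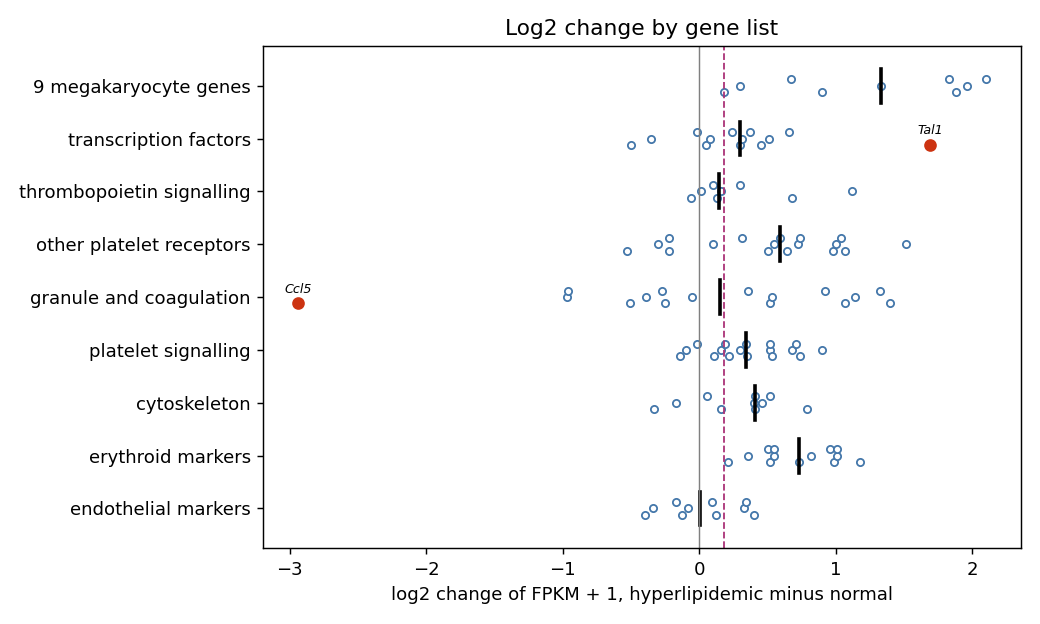
Circles give the log2 change of FPKM + 1 (hyperlipidemic minus normal) of each tested gene by list, filled circles are genes called at a limma adjusted p under 0.05, thick bars are list medians and the dashed line is the median of all tested genes, 0.18. Tal1 and Ccl5 are the filled circles, and the 9 megakaryocyte genes have the rightmost median, 1.33.

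After removal of group means, the genes whose log2 FPKM moved most like that of Itga2b over the 8 libraries were Cytip (Pearson's r = 0.992), Tpd52l1 (0.983), Zfp868 (0.979), Kars (0.977) and Gna12 (0.975). These r values describe 8 points that share library and depth and carry no test. Of the members, Vwf was ranked 16 (r = 0.961), Gp9 76 (0.921) and Ppbp 86 (0.916), with Itga2b itself counted as the first. The ranking held 10510 other genes with a mean of at least 1 FPKM and a named symbol. Gp6 (0.501), Treml1 (0.437), Pf4 (0.424) and Gp1bb (0.283) followed Itga2b less closely, and Gp1ba had an r of -0.169. Normal replicate 2 held the highest normal level of Cytip as of Itga2b (16.0 FPKM), but the group means of Cytip were 10.3 and 10.8 FPKM.

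No circular RNA in the table of 774 was assigned to a member, and 21 came from 6 listed lineage genes, 13 of them from Syk. Across these 21, values above 0 were listed 27 times in the normal and 63 times in the hyperlipidemic libraries, beside 932 and 2456 times over all 774. Within 50 kb of 8 members lay 18 long non-coding RNAs, 3 of them inside the locus of Itga2b or Vwf, and 3 of the 18 had groups without overlap, 2 higher and 1 lower in the hyperlipidemic group. Over the whole table of 14625 long non-coding RNAs, 2.85% were higher and 0.745% lower without overlap. At higher coordinates than the Pf4 and Ppbp pair, MSTRG.36868.1 (chromosome 14, 18891395 to 18898037 on Rnor_6.0, 38.1 kb from Ppbp) measured 1.04, 1.07 and 1.22 FPKM in the first 3 normal replicates and was listed at 0 in the fourth. Its hyperlipidemic values were 3.88, 1.92, 3.86 and 4.41 FPKM. Its neighbour MSTRG.36869.1 (18900923 to 18920822) gave no value above 0 in normal replicates 1, 3 and 4, and was at 1.14 FPKM in normal replicate 2 and at 3.35, 1.31, 3.57 and 2.01 FPKM in the hyperlipidemic libraries. In the authors' deposited table each of these had a q-value of 0.693. The third, near Treml1, was lower in the hyperlipidemic group, at 1.16 to 3.25 against 0.517 to 0.913 FPKM.

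For the members themselves the authors' deposited table gave q-values from 0.741 (Itga2b) to 0.960 (Gp1bb). That table marked Ppbp, Gp6, Gp9 and Pf4 as up, with fold changes of 2.47, 3.12, 2.14 and 2.80, and the other 5 as no change.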

How the data were processed

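The 8 libraries were grouped by the labels. The tools named, per the submitters' processing notes, are StringTie 1.3.3b, HISAT2 2.1.0 and bcl2fastq 1.8.4, with the build Rnor_6.0. Neither their settings nor the caller of circular RNAs is stated in the labels. The authors deposited FPKM for genes, lncRNAs and circRNAs, and for each row a fold change, its log2, a p-value and a q-value, whose formulas the labels do not state. The circRNA unit is named by its deposited table alone. Every column was matched to a library (0 unmatched).

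Genes with a mean of at least 0.5 FPKM were tested on log2(FPKM + 1) with limma 3.58.1 in R 4.3.3 (trend in the prior variance, Benjamini-Hochberg adjustment over all 13742 genes, called under 0.05). Fold changes on this scale understate those of low genes. For ratios, a two-sided exact permutation test ran over all 70 assignments (scipy 1.17.1). Lists are described by counts and medians. The members and lists were chosen with earlier results of these data known. Genes named were the members, the 4 listed genes with the smallest p in each lineage list, called genes and the most abundant markers of other cell types; all further listed genes, such as partners of members and genes without overlap between groups, were named after their values were seen. Listed symbols with no row in the table were not analysed here. Some listed genes are not reported here. The fit was tested on simulated data. Alternatives were other scalings, pseudocounts, filters and weights, the replicate number as a block, and each library left out; leaving out normal replicates 1 and 4 together was added after the data were seen.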

Additional observations from a re-analysis of the deposited data

Results flagged for a closer look

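Among 110 groups of 4 values checked for a single library far from the other 3, which chance gives in about 1 of 20, 3 were marked. Jak2 was at 15.6 FPKM in hyperlipidemic replicate 2, against 22.3 to 22.8 FPKM in the other 3, the library that also held the lowest hyperlipidemic value of 8 of the 9 megakaryocyte genes. The red cell enzyme gene Alas2 was at 302 FPKM in normal replicate 1, against 147 to 165 in the other normal libraries. The skeletal muscle actin Acta1 was at 21.8 FPKM in normal replicate 1, against 0.125 to 2.86 in the other normal libraries, and at 16.6 FPKM in hyperlipidemic replicate 1.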

How the results depend on the processing

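No member was called under any of the 17 other settings or without normal replicates 1 and 4, and all 9 kept a log2 change above 0 except Gp1bb, which lay between -0.04 (without normal replicate 4) and 0.42 when each library was left out. The median of the members was 0.74 without normal replicate 1. Genes called over all genes numbered 191, and 107 with no filter on low values, 151 with the replicate block and 109 to 215 when each library was left out. Of these 20 were higher, and 35 under quantile normalization or with array quality weights, 8 with no filter, 4 with the replicate block, 5 without normal replicates 1 and 4 and 3 to 47 when each library was left out; 171 were lower, and 99 with no filter and as few as 103 when a library was left out. Members without overlap numbered 1, and 3 under quantile normalization and 1 to 5 when each library was left out (4 without normal replicate 2, 5 without hyperlipidemic replicate 2). With fewer libraries any gene separates more easily. The share of tested genes higher without overlap was 4.19% with all libraries and 7.63% without normal replicates 1 and 4. That share is not given here for the other settings, so these counts are no result about the members. With the replicate number as a block 0 members were called and Tal1 was not (limma adjusted p = 0.0785). Deviations of same-numbered libraries correlated weakly, at 0.0107 to 0.129. Yet 5 of 8 libraries correlated best with their own number among the 4 libraries of the other group. Whether the numbers pair the libraries is therefore not settled. Without normal replicates 1 and 4 neither Tal1 (0.204) nor Ccl5 (0.231) was called. Scaling moved the median of all genes from 0.18 to between 0.051 and 0.056, and the share above 0 from 65.0% to between 54.4% and 54.9%. Stat5b turned to -0.03 under median-of-ratios scaling, -0.02 when scaled to loci longer than 1000 bp and between -0.01 (without normal replicate 1) and 0.25 when each library was left out, and Serpine2 was called under the scaling to longer loci (0.0397). The cause of these shifts was not tested. Loci of up to 1000 bp held 64.5% to 82.3% of the summed FPKM in normal and 59.7% to 70.4% in hyperlipidemic libraries. Their part in the shifts was not tested. Depth is unknown, and transcripts near 0 FPKM, such as Gp5, cannot be placed.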

Other observations

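Marker lists of other blood cells were read in the same libraries, with no test between lists. Of 8 neutrophil genes 1 had higher and 7 lower values (median log2 change -0.19), with the calprotectin genes S100a8 and S100a9 the most abundant at 0.20 and -0.26. Of 5 mast cell genes 2 had higher and 3 lower values (median -0.91), the protease gene Cpa3 being at 19.8 to 47.9 FPKM in normal and 9.44 to 17.3 FPKM in hyperlipidemic libraries, and Fcer1a having a log2 change of 0.89. Of 8 macrophage genes 4 had higher values (median 0.24; Cd68 -0.56, C1qc 0.54, and Cd163 the highest at 1.11, adjusted p = 0.22), and of 4 genes shared by leukocytes 3 did (median 0.28; Coro1a 0.32, Laptm5 -0.12). Of 3 tested stem and progenitor genes 2 had higher values, Kit at 1.75 to 4.8 and 5.30 to 8.74 FPKM without overlap and Cd34 with a log2 change of 0.48. No gene of these lists was called over all genes by limma.

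Outside the blood lineages, in bone from which muscle had been cleaned per the labels, 4 of 5 skeletal muscle genes had higher values (median log2 change 0.69, Acta1 -0.14). Mylpf, Tnnt3 and Myh4 averaged 0, 0.451 and 0.0157 FPKM in the normal libraries. They passed the 0.5 FPKM filter only through the hyperlipidemic group, so their direction is no result. Mylpf was at 14.2 FPKM in hyperlipidemic replicate 1. The summed level of the 5 genes was 57 FPKM there, against 11.4, 1.85 and 2.61 FPKM in hyperlipidemic replicates 2 to 4 and 0.193 to 21.8 FPKM in normal libraries. Of 6 osteoblast genes 5 had lower values (median -0.40), Bglap being the 1 called (-1.25, adjusted p = 0.0201) and Col1a1 at -1.14. Bglap no longer passed when normal replicate 4 or any 1 of hyperlipidemic replicates 1, 2 and 4 was left out (adjusted p from 0.0684 to 0.0935), with the replicate number as a block (0.0918) and without normal replicates 1 and 4 (0.0883).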
